A study of Mus musculus with 141 samples.

Results

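Collagen I, the main fibrous protein of the extracellular matrix, is assembled from the products of Col1a1 and Col1a2, and in adipose tissue it is made mostly by fibroblasts and adipose progenitors. Its chains are hydroxylated and folded in the endoplasmic reticulum, exported in large carriers, trimmed by proteinases outside the cell and crosslinked by lysyl oxidases. Matrix genes of white adipose tissue are known to change with obesity, inflammation and expansion of the depot. The comparison described here set the 34 inguinal adipose (iWAT) libraries with the highest Col1a1 for their sex against the 34 with the lowest, out of 67 female and 74 male libraries in the series, across all other genes.

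Every library came from 1 mouse of the Hybrid Mouse Diversity Panel, a set of inbred and recombinant inbred strains, and both groups shared the same diet, which was high in fat and sucrose (HF/HS) and fed for 8 weeks from 8 weeks of age, with a 4 h fast before collection. The series represented 82 strains, with at most 1 library per sex and strain, so that strain effects and differences between single mice cannot be told apart within a sex. Before ranking, 3 libraries were left out by mouse number, in each of which the summed level of Y-linked genes lay outside the range of the other libraries of the labelled sex. The remaining 65 female and 73 male libraries were ranked within each sex by Col1a1 in TPM (transcript abundance corrected for length and scaled to the same sum in each library), and the members were chosen by this value as the top and bottom 1 in 4 libraries, 16 female and 18 male in each group, with 70 libraries between them.

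Col1a1 (ENSMUSG00000001506, chr11:94936224-94953042, plus strand, GRCm38) chose the libraries, so its levels are a description. In females it ran from 259 to 443 TPM with a median of 306 in the high group and from 32.3 to 103.2 TPM with a median of 81.3 in the low group. In males it ran from 256 to 509 TPM with a median of 312 in the high group and from 50.4 to 130.6 TPM with a median of 96.1 in the low group. The limits cut through a continuous range. Among females, PL/J at 259 TPM was the last inside the high group and BXH22/KccJ at 252 TPM the first outside, and BXD55/RwwJ at 103.2 TPM was inside the low group and CXB11/HiAJ at 108.6 TPM outside. Among males, C57BL/6J at 256 TPM and AXB12/PgnJ at 251 TPM stood on either side of the upper limit, and BXD56/RwwJ at 130.6 TPM and BXD38/TyJ at 133.6 TPM on either side of the lower limit.

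**Figure D1:**
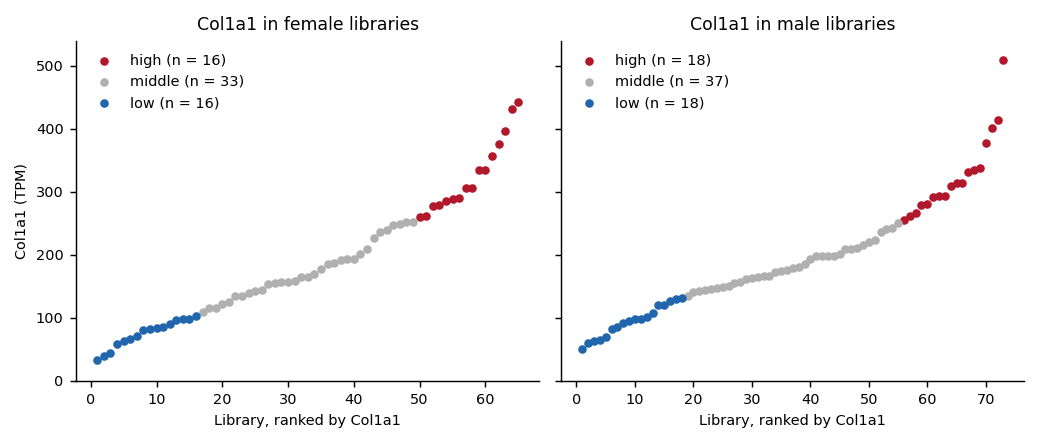
Col1a1 (TPM, linear axis) in each ranked library of the females and the males, in order of level; red marks the high group, blue the low group and gray the libraries between. Levels rise without a break at either limit, from 32.3 to 443 TPM in females and from 50.4 to 509 TPM in males.

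The windows around the starts of Col1a2 and Col3a1 are shown because these genes followed Col1a1 most closely of all genes. Each holds 250 bases before and 50 bases after the start given by RefSeq on GRCm38.p6, and capitals mark the letters CCAAT or their reverse complement ATTGG. The Col1a2 window is chr6:4505368-4505667 on the plus strand, and the Col3a1 window is chr1:45311288-45311587 on the plus strand.
Col1a2: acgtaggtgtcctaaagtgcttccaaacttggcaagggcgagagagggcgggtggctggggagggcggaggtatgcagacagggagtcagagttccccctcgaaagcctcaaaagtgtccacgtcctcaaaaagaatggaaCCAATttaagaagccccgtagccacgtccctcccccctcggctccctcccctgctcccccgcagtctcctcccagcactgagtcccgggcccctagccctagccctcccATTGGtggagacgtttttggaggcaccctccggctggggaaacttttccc
Col3a1: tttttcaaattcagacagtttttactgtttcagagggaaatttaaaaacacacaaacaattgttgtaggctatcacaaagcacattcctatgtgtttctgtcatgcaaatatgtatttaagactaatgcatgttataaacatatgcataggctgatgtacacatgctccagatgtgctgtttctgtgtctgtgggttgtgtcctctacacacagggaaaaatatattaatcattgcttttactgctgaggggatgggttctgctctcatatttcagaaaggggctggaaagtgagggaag
The Col1a2 window held these letters 1 time on each strand, and the Col3a1 window did not hold them. Searched on both strands, CCAAT was in 12289 of all 32851 windows (37.4%), in 5117 of 12096 windows of the genes tested for expression (42.3%), in 10 of 30 windows of collagen genes outside the basement membrane (33.3%) and in 41.7% of 314 windows of genes at least 2-fold higher in the high group, against 38.1% of 577 windows of genes at least 2-fold lower. A match is a description of the letters.

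The groups held 54 strains, and 14 of these had both sexes in a group: both high in 9 strains, both low in 3 and 1 in each in 2. BXD recombinant inbred strains gave 15 libraries of each group. The adipocyte genes Adipoq and Fabp4 were abundant in all 68 libraries, at 299 to 3288 and 2111 to 31609 CPM (counts scaled to a common library total). Total counts ran from 22912977 to 46602779 in the high and from 20568201 to 78562648 in the low group. A second property set libraries apart, which was the mean log2 CPM of 14 T and B cell genes. Libraries above 4 on this mean, a limit set after the data were seen, numbered 6 of 34 in the high group, 25 of 34 in the low group and 32 of 70 between. The B cell gene Ms4a1 stayed at or below 8.12 CPM in the 37 libraries of both groups under the limit and at or above 26.5 CPM in the 31 over it. Between these libraries 8 of the 14 genes, Ms4a1 among them, did not overlap and 6 did, among them Cd3e, which reached 17.96 CPM under the limit and began at 9.08 CPM over it. Results are therefore also given for the 28 high and 9 low libraries under the limit, called lymphocyte-poor here. These 9 low libraries had 9.23% to 25.1% of counts on mitochondrially encoded genes, against 4.72% to 12.2% in the whole high group. An imbalance in this share therefore remained, and its part in the lymphocyte-poor results was not tested. In bulk tissue, fewer cells of a type and less RNA per cell cannot be told apart.

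Genes were compared between the groups with edgeR's quasi-likelihood test on TMM-scaled counts with sex in the model, and p-values were adjusted by the Benjamini-Hochberg method over 16710 genes. A log2 fold change (log2FC) is the high minus the low group, and a gene was called at an adjusted p under 0.05. Because Col1a1 chose the libraries, these p-values describe how other genes moved with it. Of all genes tested, 4356 were higher in the high group (26.1%) and 5655 lower (33.8%), of which 462 (2.76%) and 924 (5.53%) differed at least 2-fold. In the lymphocyte-poor libraries 2623 of 17061 genes were higher (15.4%) and 3020 lower (17.7%). Of the genes called higher in the full comparison, 1621 were called higher and 20 lower there, and of those called lower, 1733 were called lower and 319 higher. The split of directions depended on the scale, with 8260 genes higher and 1314 lower on log2(TPM + 1). The median log2FC of all genes was -0.05 on TMM-scaled counts and 0.19 on log2(TPM + 1), and list medians are to be read against these.

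The genes most like Col1a1 were other collagens. Over all ranked libraries, log2(TPM + 1) centered within sex had the highest Pearson correlation with Col1a1 for Col1a2 (0.946), Col3a1 (0.942), Col5a2 (0.927), Col6a2 (0.909), Col5a1 (0.907), Col6a1 (0.906), Loxl2 (0.874), Maged2 (0.874), Creb3l1 (0.871) and Fstl1 (0.866). These values are a description, since the genes share each library and its TPM scaling. On this length-corrected scale Col3a1 averaged 2116 TPM in the high and 533 TPM in the low group, and Col1a2 385 and 113.3 TPM.

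Fibrillar collagens, the chains of the main collagen fibrils, were mostly higher with Col1a1. Of 9 tested, 6 were higher and 2 lower, with a median log2FC of 1.30, and in the lymphocyte-poor libraries 4 were higher and 1 lower (median 0.53). Col3a1 (chr1:45311538-45349706, plus strand), which encodes collagen III, ran from 2843 to 6909.7 CPM with a median of 4574 in the high group and from 412 to 2307 CPM with a median of 1403 in the low group. Every high library lay above every low library for Col3a1 and Col5a2, for no other of the 16710 genes, and no gene had every high library below every low one. The difference for Col3a1 (log2FC 1.74, SE 0.107, adjusted p = 3.98e-21) was 1.82 in females and 1.67 in males. Col5a2 (chr1:45374321-45503282, minus strand), a chain of the collagen V that helps to start fibrils, ran from 423 to 863 CPM with a median of 581 in the high group and from 69.1 to 380.1 CPM with a median of 201 in the low group (log2FC 1.59, SE 0.107, adjusted p = 2.81e-19). Col1a2, the partner chain in collagen I, ran from 933 to 2653 CPM with a median of 1506 in the high group and from 256 to 985 CPM with a median of 553 in the low group (log2FC 1.49, SE 0.0886, adjusted p = 1.61e-21), and 1 low library exceeded the lowest high one. Col5a1 rose as well (1.47, adjusted p = 4.67e-17). The 2 lower members were Col11a2 (-1.49, adjusted p = 2.26e-06) and Col27a1 (-0.59, adjusted p = 3.15e-05), and Col24a1 was not called (0.39, adjusted p = 0.128). Col11a2, a chain of cartilage collagen XI, was not called in the lymphocyte-poor libraries (0.03, adjusted p = 0.938).

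Among other collagens the changes were split. Of 25 tested, 9 were higher, each at least 2-fold, and 2 lower (median 0.18), and in the lymphocyte-poor libraries 11 of 26 were higher and 0 lower (median 0.54). Collagen VI forms beaded filaments around adipocytes, and its gene Col6a2 ran from 419 to 1082 CPM with a median of 743 in the high group and from 68.3 to 764 CPM with a median of 223 in the low group (log2FC 1.59, SE 0.123, adjusted p = 1.02e-16). The groups nearly separated, with 2 low libraries above the lowest high one. Col6a1 rose as well (1.49, adjusted p = 2.95e-17), and Col12a1, which encodes a collagen that coats fibrils, rose from a median of 10.4 CPM in the low group to 32.8 CPM in the high group (log2FC 1.61, SE 0.166, adjusted p = 3.61e-12). Col6a4 (-2.06, adjusted p = 0.00125) and Col20a1 (-0.48, adjusted p = 0.00824) were lower, and neither was called in the lymphocyte-poor libraries (0.22, adjusted p = 0.743 and -0.33, adjusted p = 0.204). Col6a5 (0.64, adjusted p = 0.1003) and Col9a2 (-0.40, adjusted p = 0.346) were not called in the full comparison.

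Genes that process collagen rose with it. In the list of hydroxylases, chaperones, export factors and propeptide-removing enzymes, 25 of 28 were higher and 0 lower (median 0.68), and in the lymphocyte-poor libraries 21 were higher and 1 lower (median 0.45). Pcolce2, an enhancer of the C-proteinase of procollagen, ran from 28.9 to 418 CPM with a median of 138.2 in the high group and from 6.61 to 124.7 CPM with a median of 34.9 in the low group (log2FC 1.72, SE 0.215, adjusted p = 1.14e-09). Creb3l1, which encodes an endoplasmic reticulum transcription factor that acts on collagen genes, ran from 20.2 to 56.5 CPM with a median of 34.2 in the high group and from 6.92 to 34.8 CPM with a median of 14.4 in the low group (log2FC 1.19, SE 0.104, adjusted p = 8.46e-15). The groups overlapped for both, with 21 and 6 low libraries above the lowest high one. Adamts2, the gene of an N-proteinase of procollagen (1.10, adjusted p = 9.29e-12), and Pcolce (1.02, adjusted p = 6.96e-13) were higher, and Adamts3 (0.45, adjusted p = 0.0923) and Colgalt2 (0.26, adjusted p = 0.109) were not called. Without the PL/J male of the low group Adamts3 was called (0.55, adjusted p = 0.03605).

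The general secretory pathway moved less, with 12 of 17 genes higher, 0 lower and a median of 0.14. Sec24d, a COPII coat gene needed for procollagen export, ran from 46.8 to 144 CPM with a median of 85.8 in the high group and from 23.1 to 79.4 CPM with a median of 40.4 in the low group (log2FC 1.01, SE 0.0807, adjusted p = 2.97e-16). Kdelr3, a receptor that returns proteins to the endoplasmic reticulum (1.02, adjusted p = 2.46e-10), and the chaperone gene Hspa5 (0.37, adjusted p = 2.97e-07) were higher, and Atf4 (0.04, adjusted p = 0.541) and Xbp1 (0.02, adjusted p = 0.849), transcription factors of endoplasmic reticulum stress, were not called. All 6 crosslinking genes were higher (median 1.01), 5 of them in the lymphocyte-poor libraries. The lysyl oxidase gene Loxl2 ran from 71.98 to 203 CPM with a median of 106.8 in the high group and from 15.1 to 72.1 CPM with a median of 37.2 in the low group (log2FC 1.46, SE 0.105, adjusted p = 5.60e-18). For Loxl2 1 low library lay above the lowest high one, and Loxl4 (1.28, adjusted p = 3.11e-10), Lox (1.12, adjusted p = 2.80e-07) and Loxl1 (0.90, adjusted p = 1.50e-08) rose too.

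**Figure D2:**
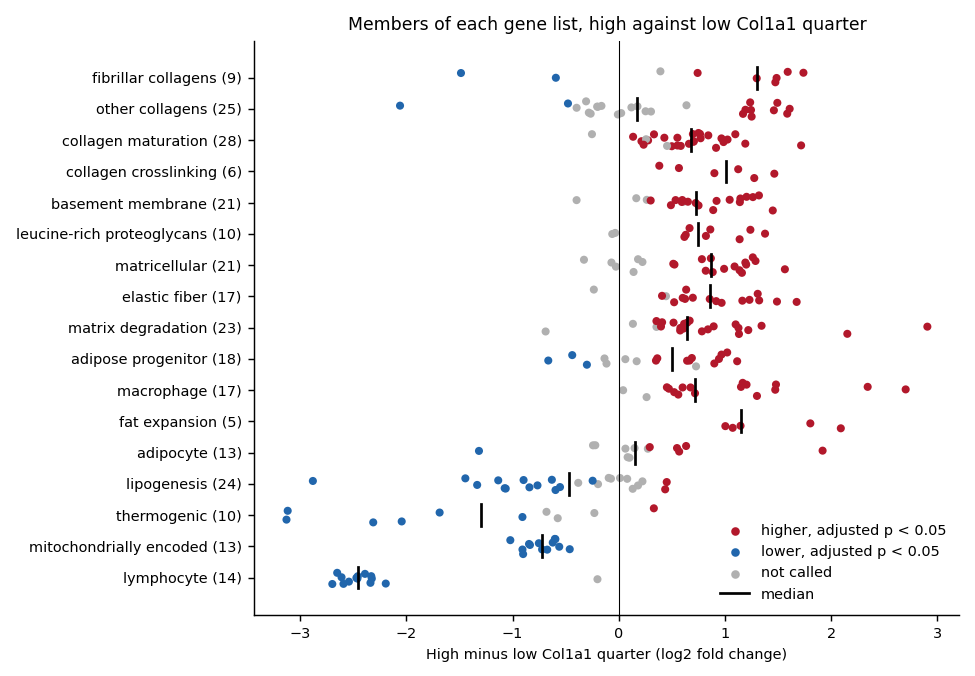
Log2FC (high minus low-Col1a1 group) of each tested member of 17 gene lists, 1 point per gene, with the number tested in parentheses; red points were called higher, blue points lower, gray points were not called, and black bars are medians. The collagen and matrix lists lie mostly to the right of 0, lipogenic, thermogenic and mitochondrially encoded genes to the left, and the lymphocyte list farthest left with a median of -2.46.

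The basement membrane, the sheet of collagen IV and laminin around adipocytes and vessels, followed the fibrils. Of 21 genes 17 were higher and 0 lower (median 0.73), with 12 higher in the lymphocyte-poor libraries (median 0.59). Col4a2 ran from 780.1 to 3177 CPM with a median of 1673 in the high group and from 234 to 1431 CPM with a median of 651 in the low group (log2FC 1.45, SE 0.128, adjusted p = 1.57e-14). Its partner chain Col4a1 (1.32, adjusted p = 8.46e-15), the perlecan gene Hspg2 (1.26, adjusted p = 1.73e-12) and the laminin gene Lama2 (1.20, adjusted p = 1.08e-12) were higher, and Col4a6 (0.61, adjusted p = 0.0564) and Lama1 (-0.40, adjusted p = 0.368) were not called. Without the PL/J male of the low group Col4a6 was called (0.79, adjusted p = 0.00937).

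Proteins that bind and space the fibrils rose in the same libraries. Of 10 small leucine-rich proteoglycan genes 8 were higher and 0 lower (median 0.74), and 9 were higher in the lymphocyte-poor libraries. Prelp rose from a median of 530.4 CPM in the low group to 1905 CPM in the high group (log2FC 1.38, SE 0.183, adjusted p = 5.11e-09), with Lum (1.24, adjusted p = 6.95e-13) and Aspn (1.14, adjusted p = 5.07e-09), while Podn (-0.03, adjusted p = 0.857) and Fmod (-0.06, adjusted p = 0.826) were not called. Of 17 elastic fiber genes 15 were higher and 0 lower (median 0.86), with 13 higher in the lymphocyte-poor libraries. The fibrillin gene Fbn1 ran from 140.2 to 562 CPM with a median of 269 in the high group and from 35.98 to 471 CPM with a median of 81.4 in the low group (log2FC 1.49, SE 0.167, adjusted p = 4.45e-11). Mfap4, which encodes a microfibril-associated protein, rose from a median of 1.64 CPM in the low group to 4.91 CPM in the high group (1.68, adjusted p = 3.25e-07), and Fbn2 (0.44, adjusted p = 0.143) and Ltbp2 (-0.23, adjusted p = 0.136) were not called.

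Matricellular and adhesive proteins connect cells with the matrix. Of 21 genes 15 were higher and 0 lower (median 0.87), and 13 were higher in the lymphocyte-poor libraries. Fibronectin (Fn1) ran from 331 to 1271 CPM with a median of 705 in the high group and from 58.4 to 878 CPM with a median of 205 in the low group (log2FC 1.56, SE 0.152, adjusted p = 5.26e-13). Periostin (Postn; 1.29, adjusted p = 4.36e-11) and the thrombospondin genes Thbs1 (1.26, adjusted p = 6.38e-06) and Thbs3 (1.20, adjusted p = 2.11e-12) were higher, although Thbs1 was not called in the lymphocyte-poor libraries (0.95, adjusted p = 0.0737). Osteopontin (Spp1), made by macrophages among other cells, was not called (-0.33, adjusted p = 0.583) but was higher in the lymphocyte-poor libraries (1.83, adjusted p = 0.02199), and Tgfbi was not called (0.22, adjusted p = 0.0923).

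Genes of matrix breakdown and its inhibitors rose together with the matrix genes. Of 23 genes 20 were higher and 0 lower (median 0.64), with 12 higher in the lymphocyte-poor libraries (median 0.45). Mrc2, an endocytic receptor that takes up collagen, ran from 44.4 to 390.1 CPM with a median of 146 in the high group and from 6.87 to 118.2 CPM with a median of 24.6 in the low group (log2FC 2.15, SE 0.198, adjusted p = 7.78e-14). The macrophage elastase gene Mmp12 ran from 4.84 to 858 CPM with a median of 120.2 in the high group and from 2.400 to 309.8 CPM with a median of 7.92 in the low group (log2FC 2.91, SE 0.395, adjusted p = 9.56e-09). The overlap was wide for Mmp12, where 22 low libraries exceeded the lowest high one, against 13 for Mrc2. Ctsk, which encodes the collagen-degrading cathepsin K (1.34, adjusted p = 4.94e-13), and the inhibitor gene Timp1 (1.22, adjusted p = 6.01e-06) were higher, and Mmp9 (0.35, adjusted p = 0.169) and Mmp24 (-0.69, adjusted p = 0.0661) were not called.

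TGF-beta signaling induces matrix genes in fibroblasts. Of 20 of its genes 13 were higher and 1 lower (median 0.27), and in the lymphocyte-poor libraries 9 were higher and 1 lower. Among ligands and receptors, Tgfb2 (0.74, adjusted p = 5.03e-05) and Acvrl1 (0.47, adjusted p = 3.16e-09) were higher and Tgfb1 (-0.03, adjusted p = 0.817) and Tgfbr1 (0.07, adjusted p = 0.341) were not called. Nrep rose from a median of 45.5 CPM in the low group to 109.9 CPM in the high group (log2FC 1.15, SE 0.139, adjusted p = 3.80e-10). The inhibitory gene Smad7 was the 1 lower member (-0.32, adjusted p = 0.0173), with a log2FC of 0.0293 on log2(TPM + 1), and was higher in the lymphocyte-poor libraries (0.40, adjusted p = 0.0174). Contractile genes of smooth muscle and myofibroblasts were higher for 7 of 8 (median 0.50), led by Acta2 (1.01, adjusted p = 3.62e-09), and 4 were higher in the lymphocyte-poor libraries.

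Markers of adipose progenitors were more often higher than lower, but did not all move in 1 direction. Of 18 genes 10 were higher and 3 lower (median 0.50), against 26.1% higher and 33.8% lower of all genes. In the lymphocyte-poor libraries 5 were higher and 1 lower, against 15.4% and 17.7% of all genes. Cd34, a surface antigen of progenitors and endothelium, ran from 115.0 to 294 CPM with a median of 195 in the high group and from 48.2 to 198 CPM with a median of 99.1 in the low group (log2FC 0.97, SE 0.1002, adjusted p = 3.76e-12). Sema3c (1.11, adjusted p = 1.26e-06), Wnt2 (1.02, adjusted p = 1.10e-04) and Pi16 (0.94, adjusted p = 0.00111) were higher but not called in the lymphocyte-poor libraries (0.45, adjusted p = 0.0501; 0.80, adjusted p = 0.0681; 0.41, adjusted p = 0.422). The lower members were Icam1 (-0.66, adjusted p = 3.35e-04), Thy1 (-0.44, adjusted p = 0.0103) and Cd55 (-0.30, adjusted p = 0.0336; 0.00641 on log2(TPM + 1)), but in the lymphocyte-poor libraries the sign of all 3 turned, with Icam1 higher (0.36, adjusted p = 0.00813) and Thy1 (0.38, adjusted p = 0.0592) and Cd55 (0.18, adjusted p = 0.382) not called. Dlk1 (0.73, adjusted p = 0.0573) and Creb5 (0.17, adjusted p = 0.2604) were not called. Mural cell markers were higher for 8 of 9, among them Pdgfrb (0.90, adjusted p = 3.01e-13), with Des lower (-0.40, adjusted p = 9.06e-04) but at 0.00123 on log2(TPM + 1), and 5 were higher in the lymphocyte-poor libraries. All 10 blood endothelial markers were higher (median 0.48; Cdh5 0.72, adjusted p = 5.23e-07), but only Pecam1 was in the lymphocyte-poor libraries (0.34, adjusted p = 0.0252).

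Macrophage genes were higher with Col1a1. Of 17 genes 15 were higher and 0 lower (median 0.72), and in the lymphocyte-poor libraries 16 were higher (median 1.32). Gpnmb, a glycoprotein gene of lipid-laden macrophages, ran from 2.72 to 1232 CPM with a median of 97.3 in the high group and from 0.682 to 243 CPM with a median of 12.4 in the low group (log2FC 2.70, SE 0.4496, adjusted p = 9.10e-07). Trem2, which encodes a lipid receptor of such cells, ran from 1.04 to 64.05 CPM with a median of 8.66 in the high group and from 0.428 to 14.01 CPM with a median of 1.41 in the low group (log2FC 2.34, SE 0.286, adjusted p = 5.51e-10). The groups overlapped widely, with 27 and 20 low libraries above the lowest high one. Adgre1, the F4/80 gene (1.48, adjusted p = 3.40e-09), and Lgals3 (1.47, adjusted p = 1.80e-07) were higher. Lyz2 (0.04, adjusted p = 0.884) and Ctss (0.26, adjusted p = 0.389), which other myeloid cells also express, were not called with all libraries and were higher in the lymphocyte-poor ones (1.35, adjusted p = 1.34e-05 and 1.97, adjusted p = 1.39e-05). Mast cell genes were higher for 6 of 8 (median 0.57), among them the receptor gene Fcer1a (1.07, adjusted p = 8.31e-04) and the tryptase gene Tpsb2 (0.81, adjusted p = 7.14e-04).

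The largest increases, among called genes with a mean of at least 1 CPM, were found for Tph2 (4.09), Itgad (3.75), Rps3a3 (3.37), Tm4sf19 (3.10), Atp6v0d2 (2.98), Mmp12 (2.91), Gdf3 (2.89), Lipf (2.82), Gpnmb (2.70) and Gm4912 (2.64), as log2FC. Tph2 (chr10:115078641-115185022, minus strand), which encodes the neuronal tryptophan hydroxylase of serotonin synthesis, ran from 0.0298 to 192 CPM with a median of 60.9 in the high group and from 0 to 65.9 CPM with a median of 0.702 in the low group (log2FC 4.09, SE 0.602, adjusted p = 6.50e-08). It had a log2FC of 3.34 in the lymphocyte-poor libraries (adjusted p = 6.62e-04), and the ranges overlapped, with 32 of 34 high libraries above the low median. Itgad, an integrin gene of macrophages, rose from a median of 0.676 CPM in the low group to 26.4 CPM in the high group (log2FC 3.75, SE 0.517, adjusted p = 1.37e-08), and Atp6v0d2, which encodes a subunit of the lysosomal proton pump, rose from a median of 1.49 CPM in the low group to 25.6 CPM in the high group (log2FC 2.98, SE 0.345, adjusted p = 1.23e-10). In the other 31 libraries, 6 high and 25 low, Tph2 (4.86, adjusted p = 0.00703), Atp6v0d2 (2.11, adjusted p = 0.0407) and Gm4912 (2.62, adjusted p = 0.0352) were called. Itgad (1.13, adjusted p = 0.405), Gpnmb (0.93, adjusted p = 0.519) and the rest of these 10 genes were not called there. Rps3a3 shares sequence with the ribosomal protein gene Rps3a1, so that its reads may be split between copies, and its medians were 0.204 CPM in the low and 0.3797 CPM in the high group with single libraries up to 217 CPM. Without the PL/J male of the low group its log2FC was 5.99, and it was not called on log2(TPM + 1) (0.99, adjusted p = 0.0991) or with the adipocyte list as a term (2.19, adjusted p = 0.0695). Low-group medians of Tm4sf19 (0.112 CPM) and Gm4912 (0.159 CPM) were near the 0.099 CPM that 3 counts make at the median depth. Both were too low to be tested in females alone. Gdf3 had medians of 0.347 CPM in the low and 1.12 CPM in the high group, with a highest library at 59.7 CPM. Low-group means were 0.371 CPM for Tm4sf19, 0.446 for Gm4912 and 0.502 for Gdf3, so the high group took them past 1 CPM. The size of their log2FC is imprecise.

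**Figure D3:**
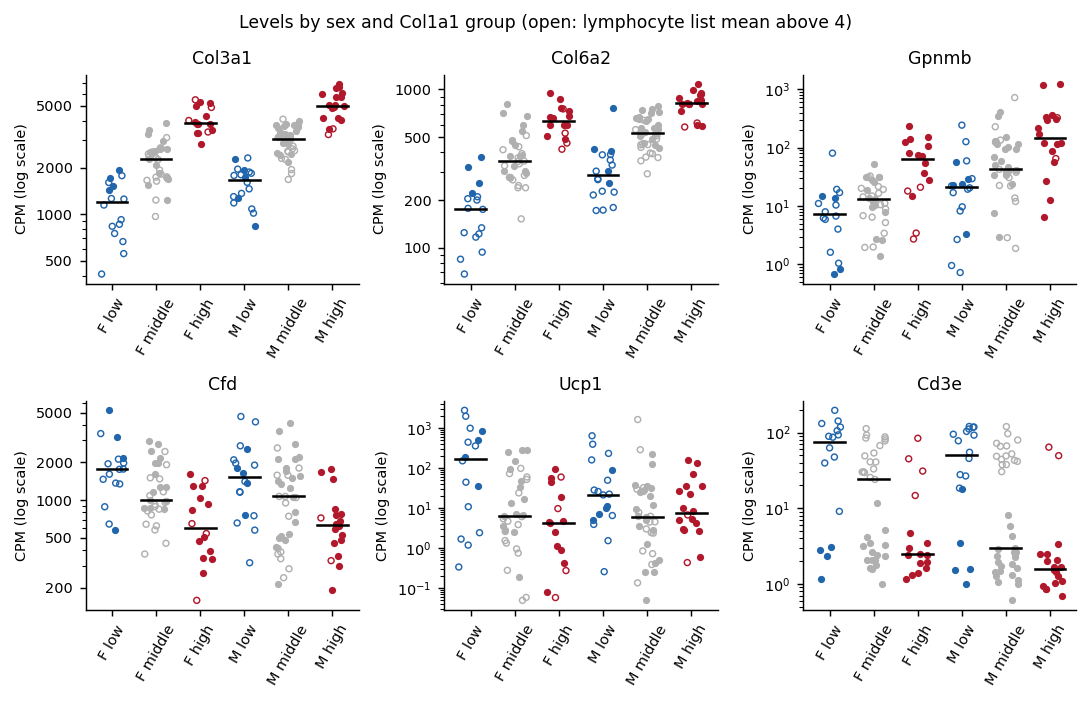
Levels of 6 genes in each ranked library (TMM-scaled CPM, log axis, values under 0.05 drawn at 0.05) by sex (F, M) and Col1a1 group; black bars are medians and open circles are libraries above 4 on the lymphocyte list. Col3a1 of the low and high groups does not overlap within either sex, Col6a2 nearly separates, Gpnmb, Cfd and Ucp1 overlap, and most open circles of Cd3e lie in the upper range, which holds most low and few high libraries.

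Adipocyte genes as a list moved little, with 5 of 13 higher and 1 lower (median 0.15), and in the lymphocyte-poor libraries 1 higher and 6 lower (median -0.37). Leptin (Lep), the hormone that follows fat mass, ran from 140.8 to 5308 CPM with a median of 2516 in the high group and from 18.7 to 3754 CPM with a median of 349.6 in the low group (log2FC 1.92, SE 0.317, adjusted p = 7.55e-07). The adipsin gene Cfd, which encodes complement factor D, moved the other way and ran from 159 to 1774 CPM with a median of 635 in the high group and from 317 to 5212 CPM with a median of 1699.7 in the low group (log2FC -1.32, SE 0.217, adjusted p = 7.13e-07). Both overlapped, with 32 of 34 high libraries above the low median for Lep and 1 of 34 for Cfd. In the lymphocyte-poor libraries Lep (0.997, adjusted p = 0.0157) and Cfd (-1.45, adjusted p = 4.29e-04) were called in the same direction, while the lipid droplet genes Cidec (0.63, adjusted p = 3.38e-04) and Plin4 (0.57, adjusted p = 3.25e-04) were not (0.08, adjusted p = 0.714; 0.11, adjusted p = 0.483). Adiponectin (Adipoq) was not called (0.27, adjusted p = 0.0817).

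A list of 5 genes tied to expansion of fat depots was higher throughout (median 1.15), with 2 higher in the lymphocyte-poor libraries, Mest (1.66, adjusted p = 0.0196) and Trp53inp2 (0.73, adjusted p = 0.0116). Mest, an imprinted gene that varies with fat mass, ran from 83.4 to 2872 CPM with a median of 859.6 in the high group and from 2.701 to 1213 CPM with a median of 123.6 in the low group (log2FC 2.09, SE 0.421, adjusted p = 2.65e-05). Sfrp5, which encodes a secreted Wnt inhibitor, rose from a median of 21.9 CPM in the low group to 139.8 CPM in the high group (log2FC 1.80, SE 0.4097, adjusted p = 1.50e-04). In the insulin-like growth factor axis 7 of 8 genes were higher (median 0.52), led by the binding protein gene Igfbp6 (0.92, adjusted p = 4.02e-06), and 2 in the lymphocyte-poor libraries.

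Lipogenic genes, which turn sugar into fatty acids and triglyceride, were mostly lower. Of 24 genes 13 were lower and 2 higher, with a median log2FC of -0.47 on TMM-scaled counts but 0.00307 on log2(TPM + 1), and in the lymphocyte-poor libraries 17 were lower and 0 higher (median -0.99). Thrsp, an inducer of lipid synthesis, ran from 18.8 to 1104 CPM with a median of 120.5 in the high group and from 13.9 to 1836 CPM with a median of 293 in the low group (log2FC -1.44, SE 0.351, adjusted p = 3.55e-04). The ranges overlapped, with 7 of 34 high libraries above the low median. The fatty acid elongase genes Elovl3 (-2.88, adjusted p = 2.32e-05) and Elovl6 (-1.33, adjusted p = 0.00103) and the acetyl-CoA carboxylase gene Acaca (-1.13, adjusted p = 6.75e-05) were lower. The 2 higher members were G6pdx (0.45, adjusted p = 0.00292) and Dgat2 (0.44, adjusted p = 0.0273), and Slc25a1 (-0.38, adjusted p = 0.0582) and Scd2 (0.22, adjusted p = 0.332) were not called.

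Thermogenic genes of brown and beige adipocytes were lower for 6 of 10 (median -1.30), with Prdm16 higher (0.33, adjusted p = 0.0253), and 8 were lower in the lymphocyte-poor libraries (median -1.78). Ucp1, the uncoupling protein of heat production, ran from 0.0586 to 153 CPM with a median of 5.14 in the high group and from 0.259 to 2721 CPM with a median of 31.8 in the low group (log2FC -3.12, SE 0.752, adjusted p = 3.27e-04). The spread within each group was wide, and 9 of 34 high libraries lay above the low median. Fabp3, which encodes a fatty acid carrier of oxidative tissue (-3.13, adjusted p = 7.11e-05), Cidea (-2.31, adjusted p = 4.62e-07) and Cox7a1 (-2.04, adjusted p = 3.60e-06) were lower, and Dio2 (-0.68, adjusted p = 0.161) and Otop1 (-0.57, adjusted p = 0.06096) were not called. Fabp3 was not called in the lymphocyte-poor libraries (-1.79, adjusted p = 0.0995). With the share of counts on mitochondrially encoded genes as a term in the model, the sign of Ucp1 (0.341) and of Fabp3 (0.0961) turned, as log2FC.

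Mitochondrially encoded genes, which specify core subunits of the respiratory chain, took 4.72% to 12.2% of counts in the high group (median 7.48%) and 3.99% to 25.8% in the low group (median 11.4%). The difference in log2 share had p = 1e-05 in a two-sided permutation test, the smallest that 100000 resamples can give (adjusted over 2 measures, 2e-05), and total counts had p = 0.268 (adjusted, 0.268). The TPM sum is fixed and includes these genes, so a larger share by itself lowers Col1a1 TPM. The p-value of the share and the slopes of these genes on Col1a1 TPM are therefore a description. Mitochondrially encoded genes took 12.2% to 31.6% of TPM (median 19.2%) in the high and 9.66% to 55.6% (median 26.2%) in the low group. Ranked by TPM without them, 32 high and 33 low libraries kept their group. All 13 protein genes were lower (median -0.72), led by mt-Nd6 (-1.02, adjusted p = 8.23e-07), mt-Atp6 (-0.91, adjusted p = 4.55e-06), mt-Co3 (-0.90, adjusted p = 1.73e-06) and mt-Co2 (-0.84, adjusted p = 3.71e-06), and all 13 were lower in the lymphocyte-poor libraries (median -1.14). Of 82 nuclear genes of the chain, collected by name, 68 were lower and 1, Ndufa4l2, higher (0.89, adjusted p = 4.55e-07), with a median of -0.39 on TMM-scaled counts, but on log2(TPM + 1) 16 were lower and 11 higher (median -0.05). Cytosolic ribosomal protein genes were lower for 70 of 81 (median -0.47), and for 5 in the lymphocyte-poor libraries (median -0.13).

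Lymphocyte genes were lower in the high group for 13 of 14 (median -2.46), and for 4 in the lymphocyte-poor libraries (median -0.15), where the limit itself was set on this list. Cd3e, a chain of the T cell receptor complex, ran from 0.6999 to 83.99 CPM with a median of 1.99 in the high group and from 1.0003 to 196 CPM with a median of 58.8 in the low group (log2FC -2.70, SE 0.519, adjusted p = 1.24e-05). Cd3g (-2.65, adjusted p = 1.19e-05), the B cell complement receptor gene Cr2 (-2.61, adjusted p = 0.00123) and Cd8a (-2.59, adjusted p = 7.81e-05) were lower, and the immunoglobulin gene Ighm was not called (-0.20, adjusted p = 0.457). The summed level of the list ran from 151 to 2945 CPM in the high and from 120.4 to 6785 CPM in the low group. The largest decreases among genes with a mean of at least 1 CPM were those of Ighv9-3 (-4.16), Igkv5-48 (-3.78), Igkv12-41 (-3.70), Dmbt1 (-3.47), Igkv5-39 (-3.45), Ighg1 (-3.30), Trbv3 (-3.14), Fabp3 (-3.13), Ucp1 (-3.12) and Trbv19 (-3.07), as log2FC. Of these 10, 7 are antigen receptor genes, whose near-identical copies can share reads. Apart from Ighg1, the medians of these receptor genes in the high group were 0.0129 to 0.0368 CPM. That is under the 0.099 CPM that 3 counts make at the median depth, so the size of their log2FC is imprecise. Single low libraries reached 100 CPM (Igkv12-41). Apart from Ighg1, these receptor genes were too low to be tested in the lymphocyte-poor libraries. Dmbt1 had a log2FC of -2.37 without the PL/J male of the low group, and was not called in the lymphocyte-poor libraries (-1.77, adjusted p = 0.156) or on log2(TPM + 1) (-0.82, adjusted p = 0.0567).

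Markers of other cells and tissues gave mixed counts. Of 17 proliferation genes 4 were lower and 1, Cdk1, higher (0.41, adjusted p = 0.02000), with a median of -0.12 on TMM-scaled counts and 0.33 on log2(TPM + 1), but in the lymphocyte-poor libraries 14 were higher (median 1.04). The replication gene Mcm2 was lower with all libraries (-0.46, adjusted p = 0.0131) and higher in the lymphocyte-poor ones (0.58, adjusted p = 0.00705). Of 9 mammary epithelial genes 3 were lower, a share near the 33.8% of all genes (Krt18 -1.51, adjusted p = 0.0136; Epcam -1.28, adjusted p = 0.0149; Csn3 -1.15, adjusted p = 0.0464, but 0.193 by limma-voom), with the sum of the list between 0.462 and 2187 CPM in the high and between 0.625 and 1129 CPM in the low group. Of 9 skeletal muscle genes Pvalb (1.64, adjusted p = 0.0337) and Acta1 (1.37, adjusted p = 0.00483) were higher, with sums between 5.67 and 1652 CPM in the high and between 3.94 and 449 CPM in the low group. The PL/J male of the low group stood apart on the mammary list, and without it Krt18 (-0.71, adjusted p = 0.129), Epcam (-0.85, adjusted p = 0.0551) and Csn3 (-0.87, adjusted p = 0.102) were not called. In females alone, whose median sum of the list was 596 CPM in the high and 531 CPM in the low group against 1.34 and 3.92 CPM in males, the log2FC of Epcam was 0.14. None of the mammary or muscle genes was called in the lymphocyte-poor libraries. Epidermal genes were higher for 4 of 6 and lymphatic endothelial genes for 2 of 5 with 1 lower, while 1 of 6 Schwann cell and 1 of 3 mesothelial genes were lower. Of all genes 26.1% were higher and 33.8% lower. The muscle, proliferation, Schwann cell and mesothelial counts of the full comparison did not exceed these shares. The part of these cells in the other differences was tested only by leaving such libraries out or by list terms in the model.

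The 70 libraries between the groups share no sample with them, and there each gene was fitted against log2 Col1a1 TPM with sex in the model, so that a slope is the log2 change per doubling of Col1a1. Of 17953 genes 98 rose with Col1a1 (0.546%) and 87 fell (0.485%). Col3a1 (slope 0.71, SE 0.128, adjusted p = 0.00283), Col5a2 (0.71, SE 0.129, adjusted p = 0.00283) and Col1a2 (0.61, SE 0.125, adjusted p = 0.00836) rose. Creb3l1 (0.71, adjusted p = 0.00556), Sec24d (0.58, adjusted p = 0.0107) and Col6a2 (0.64, adjusted p = 0.0174) rose too, and mt-Co3 fell (-0.83, adjusted p = 0.00836). These slopes used the same Col1a1 TPM that ranked the libraries. Col3a1, Col5a2, Col1a2, Creb3l1 and Col6a2 were also among the 10 genes nearest to Col1a1 over all ranked libraries, these 70 included. Their slopes, here and in the next paragraph, are therefore a description. Of the genes called higher between the groups, 3856 of 4355 had a slope above 0, 92 of them called and 0 called in the other direction. Of those called lower, 4977 of 5655 had a slope below 0, with 77 called and 2 called in the other direction. Genes vary together across the same libraries, so counts of matching signs are a description, given without the share over all genes. In the 38 lymphocyte-poor middle libraries the slope was above 0 for 3422 of 4354 of the higher genes, 208 of them called and 0 called the other way, and below 0 for 3552 of 5481 of the lower ones, with 413 called and 28 called the other way.

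By list, 4 of 9 fibrillar collagens, 3 of 27 other collagens, 4 of 28 maturation genes and 5 of 21 basement membrane genes rose in the middle libraries. Of mitochondrially encoded and nuclear respiratory chain genes 4 of 13 and 14 of 82 fell. Macrophage genes had 0 called (median slope 0.42), and lipogenic and lymphocyte genes 0 and 0 (median slopes -0.29 and -0.91). These counts moved with the libraries used. Skeletal muscle genes had a median slope of -3.88, and without the 13 middle libraries above 2 on the mean log2 CPM of that list 12 genes rose and 3 fell. Col3a1 (0.84, adjusted p = 0.00181), Col5a2 (0.83, adjusted p = 0.00371), Col1a2 (0.72, adjusted p = 0.0134), Creb3l1 (0.70, adjusted p = 0.0287) and Sec24d (0.64, adjusted p = 0.0476) were called without them, and mt-Co3 was not (-0.70, adjusted p = 0.09600). In the 38 middle libraries at or below 4 on the lymphocyte list 300 genes rose and 604 fell.

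**Figure D4:**
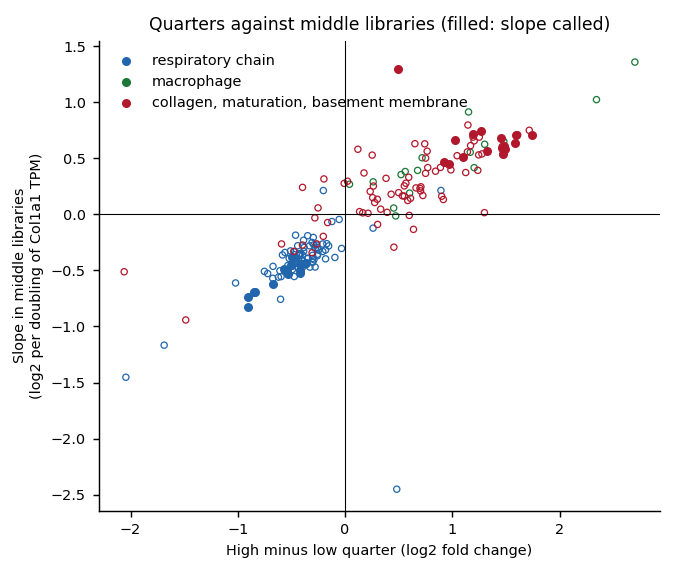
Slope in the 70 middle libraries (log2 change per doubling of Col1a1 TPM) against the log2FC between the groups, 1 point per gene, with filled points for slopes called at an adjusted p under 0.05; red marks collagens, their maturation and crosslinking and the basement membrane, blue the respiratory chain and green macrophage genes. The filled red points lie at the upper right, among them Col3a1 with a slope of 0.71, the filled blue points at the lower left, and no green point is filled.

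Both sexes had a ranked library in 58 strains. Col1a1 of the female and the male of a strain, on the log2 TPM scale, gave Pearson's r = 0.319 (permutation p = 0.0154, adjusted over the 2 coefficients 0.0154) and Spearman's rho = 0.423 (permutation p = 0.001, adjusted 0.002). Without BXD14/TyJ and MA/MyJ, the strains farthest from the median of the females, r was 0.417. In the 19 strains with both libraries lymphocyte-poor, a choice made after seeing the data, r was 0.756 (permutation p = 1.70e-04) and rho 0.7 (permutation p = 0.00128). The level was 186 TPM ± 101.7 (SD) in females and 191 TPM ± 91.7 (SD) in males of these strains, with a female minus male difference of -0.11 on the log2 scale (SD 0.95, permutation of signs, p = 0.367) and the female higher in 27 of 58 strains.

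**Figure D5:**
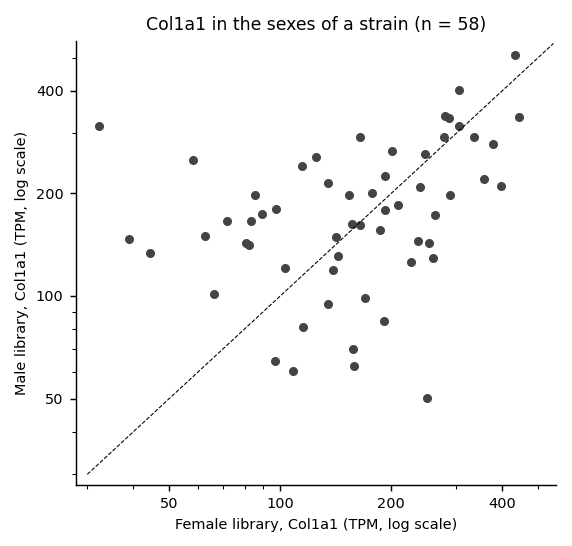
Col1a1 (TPM, log axes) in the male against the female library of each of 58 strains, with a dashed line at equal levels. Points scatter widely on both sides of the line, and MA/MyJ stands at the far left with 32.3 TPM in the female and 315 TPM in the male.

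Grouping 1 sex by the group of the other gave a comparison that did not use a library's own Col1a1. Among males, 14 had a female of the strain in the high group and 15 in the low group. Col1a1 ran from 129.2 to 509 TPM with a median of 293 in the first group and from 64.4 to 315 TPM with a median of 149.9 in the second (difference 0.82 on the log2 scale, two-sided permutation test, p = 3.00e-04, adjusted over both sexes 6.00e-04). Of the first group 9 males were themselves in the high group. Across 15978 genes 544 were higher (3.4%) and 361 lower (2.26%) in the first group. Col3a1 (0.68, adjusted p = 0.0433), Col5a2 (0.78, adjusted p = 0.0123), Mrc2 (1.15, adjusted p = 0.02903), Gpnmb (2.43, adjusted p = 0.0379) and Trem2 (2.17, adjusted p = 0.0197) were among the higher genes, and Col1a2 was not called (0.60, adjusted p = 0.05502). Col1a1 itself had a log2FC of 0.68 (SE 0.187, adjusted p = 0.03297), and 0.52 with a term for libraries above 4 on the lymphocyte list (adjusted p = 0.0656).

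By list, 3 of 9 fibrillar collagens, 8 of 23 matrix degradation genes and 9 of 17 macrophage genes were higher in the males whose female was high. Skeletal muscle genes were higher for 7 of 8 (median 3.67). Without libraries above 2 on the muscle list, which left 13 and 15 males, 776 genes were higher and 656 lower, with 4 of 9 fibrillar collagens and 13 of 17 macrophage genes higher.

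Among females, 14 had a male of the strain in the high and 15 in the low group. Col1a1 ran from 32.3 to 443 TPM with a median of 282 in the first group and from 66.05 to 259 TPM with a median of 143 in the second (difference 0.70 on the log2 scale, two-sided permutation test, p = 0.0204, adjusted 0.0204). Across 16691 genes only Col12a1 was called by edgeR (0.00599%; 1.15, adjusted p = 0.0148), and limma-voom called none. An unadjusted p under 0.05 was found for 1663 genes by edgeR and 1533 by limma-voom. A share of 0.05 of the genes would reach this if none differed. Col1a1 had a log2FC of 0.66 (SE 0.206, adjusted p = 0.2596).

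A test of whether the groups differed by unequal amounts in the sexes called 7 of 17619 genes (0.0397%) by edgeR, none of them in the lists described here, and none by limma-voom. By edgeR 1441 and by limma-voom 966 genes had an unadjusted p under 0.05, which a share of 0.05 would reach if no gene differed. For Col3a1 the male minus female difference was -0.15, adjusted p = 0.959. For Ucp1, with a log2FC of -4.76 in females and -1.69 in males, where it was not called (adjusted p = 0.0752), this difference was 3.07, adjusted p = 0.449, and for Lep, with 2.64 and 1.28, it was -1.35, adjusted p = 0.486.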

How the data were processed

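RNA-seq of iWAT was deposited as 2 gene tables. Per the study's methods, the authors quantified stranded paired-end reads with kallisto (0.46.1 per the submitters' processing notes) on the Ensembl release 97 transcriptome (GRCm38), and tximport collapsed these estimates to gene level. Estimated counts as deposited (30.3% of values not whole) were rounded here, and the deposited TPM values, scaled by the authors for length and to the same sum in each library, were used to rank libraries by Col1a1 and, as log2(TPM + 1), for likeness and alternatives. Totals of ranked libraries ran from 11747373 to 78562648 counts, so genes of few counts are the least precise. Symbols came from the reference annotation for 35935 of 36558 genes.

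Low genes were removed with filterByExpr, and counts were TMM-scaled and tested with edgeR (4.0.16) glmQLFTest with sex as a covariate, in the groups, in the middle libraries (slope on log2 Col1a1 TPM), in each sex by the group of the other, and for the group by sex interaction, with Benjamini-Hochberg adjustment at 0.05. Only 2 strains had a library in each group, so the strain term of the study's model was not used and strain entered, as an alternative, as a random block in limma (3.58.1). DESeq2 (1.42.0) was a further alternative. Single values were tested by permutation with 100000 resamples in Python with numpy (2.4.6) and scipy (1.17.1). The scripts were tested on simulated counts. P-values measure the spread between libraries, in which strain and mouse are mixed, and those of the groups describe libraries chosen by Col1a1. The edgeR test took both sexes of a strain in the same group (9 strains high, 3 low) as independent. The random block in limma gave a correlation of 0.151 between libraries of 1 strain.

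The groups, the lists and the alternatives were chosen with earlier results of these data known. Named genes were up to 4 called members of a list with the largest absolute log2FC and up to 2 not called, the 10 genes that changed most in each direction at 1 CPM or more on average, and the 10 nearest to Col1a1 in likeness. Members named as exceptions to a list's direction, genes singled out in the lymphocyte-poor libraries and the nuclear respiratory chain and ribosomal lists were chosen after their values were seen, as were the limits of 4 and 2 on the lymphocyte and muscle lists, every fit that used those limits or the mitochondrial share, and the fits without the male PL/J library. Some single genes are not reported here. Col1a1 had no entry in the promoter table.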

Additional observations from a re-analysis of the deposited data

Results flagged for a closer look

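In 7 genes the difference between the Col1a1 groups was unequal in the sexes by edgeR's interaction test, and 6 of them are given here. The male minus female difference in log2FC was -3.49 for Vmn2r99, -3.18 for Car1, -2.23 for Extl1, -1.94 for Gata3, -5.70 for Slc5a5 and 1.31 for Adssl1, with adjusted p from 0.0385 to 0.0465. None of these passed in limma-voom, where the adjusted p ran from 0.307 for Adssl1 to 0.997 for Slc5a5.

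For Slc5a5, the iodide transporter gene, and Gata3, a transcription factor gene of mammary epithelium and T cells, 1 library stood apart. The PL/J male of the low group had 58.3 CPM of Slc5a5 against at most 0.647 CPM in the other 17 low males, 62.4 CPM of Gata3 against at most 19.6 CPM, and a mean log2 CPM of the mammary epithelial list of 4.52 against -3.19 to 1.63. Without it, Vmn2r99 and Car1 were called and the other 4 named were not. Vmn2r99 in low males had a median of 1.32 CPM and a highest library of 71.5 CPM, and Car1 1.47 and 48.01 CPM. The cause of these differences was not tested.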

How the results depend on the processing

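Between the high and low groups, the counts of genes that moved by over 1.5 times were 1057 at least 2-fold higher and 2145 at least 2-fold lower without a filter on low counts, 8260 higher, 1314 lower and 349 at least 2-fold lower by limma on log2(TPM + 1), 8318 higher, 1237 lower, 987 at least 2-fold higher and 527 at least 2-fold lower by limma on log2(TPM + 0.1), 262 at least 2-fold higher with the top and bottom 1 in 3 libraries, 3450 lower in females alone, 1644 at least 2-fold lower with the 3 left-out libraries, 3512 lower and 177 at least 2-fold lower with lymphocyte, muscle and mammary lists as terms, 587 at least 2-fold lower with the adipocyte list as a term. Among alternatives chosen after seeing the data they were 2623 higher, 3020 lower and 213 at least 2-fold lower in the lymphocyte-poor libraries, 771 higher, 302 lower, 213 at least 2-fold higher and 71 at least 2-fold lower in the other 31 libraries, 3508 lower and 192 at least 2-fold lower with a term for libraries above 4 on the lymphocyte list, 3074 lower and 430 at least 2-fold lower by limma on log2(TPM + 1) without mitochondrially encoded genes. The other alternatives tried, among them RLE size factors, library totals, DESeq2, limma-voom with and without strain as a random block, ranking by CPM, each strain once, and removal of libraries above 2 on the muscle list, left all 4 counts within 1.5 times, and a slope over all ranked libraries, which gives no 2-fold count, did so for genes higher and lower. In the middle libraries 23 genes rose and 9 fell by limma-voom, 272 rose on library totals, and, chosen after seeing the data, 227 rose and 391 fell with a term for libraries above 4 on the lymphocyte list, 300 and 604 in lymphocyte-poor libraries, and 12 and 3 without libraries above 2 on the muscle list. In females by the male of the strain limma-voom called 0 genes. In males by the female of the strain 324 were higher with a term for libraries above 4 on the lymphocyte list and 656 lower without libraries above 2 on the muscle list. The interaction was called for 0 genes by limma-voom and 3 without the male PL/J library. The Pearson r of Col1a1 between the sexes was 0.25 on CPM, which did not pass (permutation p = 0.0596). Spearman's rho on CPM was 0.354 (permutation p = 0.00708, adjusted over the 2 coefficients 0.0142). Among the named genes called, 36 stayed called in the same direction at each of the 29 settings, and 20 changed sign in at least 1. The log2FC that changed sign by limma on log2(TPM + 1) were 0.00641 for Cd55, 0.00123 for Des, 0.0293 for Smad7. Changed signs by limma on log2(TPM + 0.1) were 0.00882 for Cd55, 0.00481 for Des, 0.0538 for Smad7. The log2FC that changed sign with lymphocyte, muscle and mammary lists as terms were 0.181 for Cd55, 0.397 for Col6a4, 0.0876 for Cr2, -0.156 for Dgat2, 0.23 for Icam1, 0.215 for Ighg1, 0.453 for Mcm2, -0.00243 for Prdm16, 0.252 for Smad7, 0.353 for Thy1. Changed signs in the lymphocyte-poor libraries were 0.182 for Cd55, 0.034 for Col11a2, 0.225 for Col6a4, 0.344 for Csn3, -0.219 for Dgat2, -0.14 for G6pdx, 0.357 for Icam1, 0.35 for Ighg1, 0.576 for Mcm2, 0.403 for Smad7, 0.377 for Thy1. The log2FC that changed sign in the other 31 libraries were 0.00723 for Cd55, -0.0351 for Prdm16, -0.154 for Pvalb. Changed signs with a term for libraries above 4 on the lymphocyte list were 0.112 for Cd55, -0.0134 for Dgat2, 0.127 for Icam1, 0.335 for Mcm2, 0.157 for Smad7, 0.212 for Thy1. The log2FC that changed sign by limma-voom were 0.193 for Csn3. Changed signs by limma-voom with strain as a random block were 0.206 for Csn3. The log2FC that changed sign in females alone were 0.387 for Csn3, 0.14 for Epcam. Changed signs with the mitochondrial share as a term were 0.0961 for Fabp3, 0.341 for Ucp1, 0.0353 for mt-Atp6, 0.00249 for mt-Co2. The cause was not tested. No library of either group had under 20000000 counts, so leaving out such libraries gave no value. No paired analysis by replicate number was possible because these are single mouse numbers. Strain served instead, as a random block for the groups and as the pairing of the sexes. Depth limits mainly genes near or under the 0.099 CPM that 3 counts make at the median depth.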
